A study of Homo sapiens with 14 samples.

Results

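The peptide hormone genes of the pancreatic islet and the gut were followed through a human stem cell differentiation series. The 8 genes INS, GCG, SST, PPY, GHRL, IAPP, PYY and GAST were taken by symbol and are 8 of the 60624 gene identifiers listed in each library. The data are RNA sequencing values of 14 libraries in 9 groups, all derived from MEL1, a line of human embryonic stem cells. Batch 1 held 1 library each of undifferentiated cells (hPSC), definitive endoderm (DE), the pancreatic progenitor stage PP2 and β-like cells differentiated straight from stem cells (SC-β). Batch 2 held 2 libraries each of expandable pancreatic progenitors at passage 9 (ePP-P9) and passage 21 (ePP-P21) and of β-like cells made from such progenitors (ePP-β). Batch 3 held 2 libraries each of pancreatic progenitors treated over 7 days with DMSO, the solvent, or with I-BET151 at 1 μM, which blocks the BET bromodomain proteins. The expandable progenitors were grown on feeder cells in a medium that itself contained I-BET151, beside EGF, bFGF and a TGFβ receptor inhibitor. The passage from which the ePP-β cells were made is not given in the labels.

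Each hormone of this set is made as a longer precursor. Most of these precursors are cut by the proprotein convertases PCSK1 or PCSK2 and trimmed by carboxypeptidase E on the way to storage in secretory granules. In the adult islet β cells make insulin and amylin (IAPP), α cells glucagon (GCG), δ cells somatostatin (SST), γ cells pancreatic polypeptide (PPY) and ε cells ghrelin (GHRL). Peptide YY (PYY) and gastrin (GAST) are best known from endocrine cells of the intestine and stomach, and both are also made in the fetal pancreas. RNA of whole cultures was measured, so more cells of a type and more RNA in each cell cannot be told apart, and neither can cells with several hormones and mixtures of cells with 1 hormone each. The study's methods list the MEL1 line with a GFP reporter placed in 1 INS allele. How RNA from that allele entered the INS value is not given in the sources used here.

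The 250 bases before the start of INS, GCG, SST and GAST are printed because these were the 4 most abundant hormone genes in the ePP-β libraries. They were taken from RefSeq for GRCh38.p14, where all 8 genes had an entry, and run 5′ to 3′ on the strand of the gene. Capitals mark 4 short motifs that were searched on both strands with the sequences in view: TATAAN (the core of a TATA box), CTAATG (an A box, the kind of element bound by PDX1), CAGATG (an E box, the kind bound by NEUROD1 with its partners) and TGACGTCA (the cAMP response element).
INS promoter, chr11:2161210-2161459, minus strand: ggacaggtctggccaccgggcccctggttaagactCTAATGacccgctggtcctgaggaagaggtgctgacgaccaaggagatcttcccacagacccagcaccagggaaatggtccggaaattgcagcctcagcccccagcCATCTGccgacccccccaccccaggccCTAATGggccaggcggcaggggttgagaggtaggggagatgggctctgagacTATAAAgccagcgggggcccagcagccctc
GCG promoter, chr2:162152248-162152497, minus strand: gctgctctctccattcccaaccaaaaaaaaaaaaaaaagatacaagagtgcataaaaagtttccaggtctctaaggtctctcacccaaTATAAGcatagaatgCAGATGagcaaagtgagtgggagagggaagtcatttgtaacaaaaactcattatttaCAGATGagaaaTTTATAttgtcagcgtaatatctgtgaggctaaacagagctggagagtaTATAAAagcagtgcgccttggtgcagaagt
SST promoter, chr3:187670395-187670644, minus strand: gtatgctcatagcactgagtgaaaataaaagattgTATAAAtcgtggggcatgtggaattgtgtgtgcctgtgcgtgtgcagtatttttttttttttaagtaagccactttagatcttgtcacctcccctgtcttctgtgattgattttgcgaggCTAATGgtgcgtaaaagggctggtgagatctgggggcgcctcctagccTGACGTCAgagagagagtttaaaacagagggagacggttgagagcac
GAST promoter, chr17:41712081-41712330, plus strand: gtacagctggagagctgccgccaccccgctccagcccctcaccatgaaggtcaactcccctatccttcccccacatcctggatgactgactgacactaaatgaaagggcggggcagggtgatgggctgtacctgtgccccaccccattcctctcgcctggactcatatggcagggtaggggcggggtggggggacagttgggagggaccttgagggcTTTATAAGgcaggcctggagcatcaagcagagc
TATAAN stood 30 to 25 bases before the start in both INS and GCG. INS also held CTAATG at 215 to 210 and at 82 to 77 bases before its start and CAGATG, read on the other strand, at 109 to 104. GCG held CAGATG at 147 to 142 and at 90 to 85 bases before its start and no CTAATG. SST held CTAATG at 95 to 90 bases and TGACGTCA at 47 to 40 bases before its start. In GAST the matches to TATAAN on the 2 strands overlapped, at 31 to 26 and at 33 to 28 bases. Of 35116 promoters of the same length, 18.9% held TATAAN, 5.57% CTAATG, 12.2% CAGATG and 1.65% TGACGTCA. These matches are descriptions of letters and no binding was measured.

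Values are in TPM, an abundance that is divided by transcript length and scaled to a fixed total per library. Genes can therefore be set side by side within a library. Between libraries a value is a share of that total, so it also depends on the level of the other genes. Differences between libraries are read with this limit. The number of reads behind a value is unknown. No library gave a value above 0 to any of the 37 mitochondrial genes, and an exact 0 is therefore reported only as listed at 0. Stage markers were read for hPSC, DE, PP2 and the β-like cells. POU5F1, a pluripotency factor, was highest in hPSC at 3401 TPM and still at 389 TPM in DE. SOX17 was highest in DE at 1140 TPM and PDX1 in PP2 at 251 TPM. CHGA, an endocrine granule protein, was highest in the 3 libraries of β-like cells, at 14843 to 16156 TPM. NKX6-1, by which with PDX1 the study defines PP2, was at only 23.5 TPM in PP2, against 176 to 213 TPM in the expandable progenitors.

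Before the β-like stage the hormone genes were near the floor of the data. In hPSC the 8 genes summed to 9.33 TPM, nearly all of it PYY at 8.09 TPM. In DE they summed to 0.602 TPM, with INS, GCG, PPY, IAPP and GAST listed at 0. In PP2 only SST at 1.77 TPM and PYY at 1.16 TPM passed 1 TPM. These 3 stages had 1 library each, so their differences have no replicate check.

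The expandable progenitors held no hormone gene at 1 TPM. GCG, PPY, IAPP and GAST were listed at 0 in all 4 ePP libraries. INS was at 0.0104 TPM or less, SST was listed at 0 in 3 libraries and at 0.173 TPM in ePP-P21 replicate 1, and GHRL was at 0.0464 to 0.172 TPM. PYY, the highest of the set in 3 of the 4 libraries, was at 0.619 and 0.600 TPM at passage 9 and at 0.248 and 0.151 TPM at passage 21. GHRL was at 0.0729 and 0.0464 TPM at passage 9 and at 0.172 and 0.154 TPM at passage 21. The 2 passages did not overlap for PYY, lower at passage 21, or for GHRL, higher there. All these values were below 1 TPM and how many of all genes separate in this way was not counted, so the separation is not read as a result. No hormone gene reached 1 TPM in 2 libraries, so none passed the filter used for the test between passages. Without that filter no hormone was called by limma, with a log2 fold change of -0.42 ± 0.06 for PYY (SE, limma adjusted p = 0.215) and 0.13 ± 0.02 for GHRL (limma adjusted p = 0.223). The hormone total was 0.702 and 0.649 TPM at passage 9 and 0.595 and 0.305 TPM at passage 21.

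**Figure D1:**
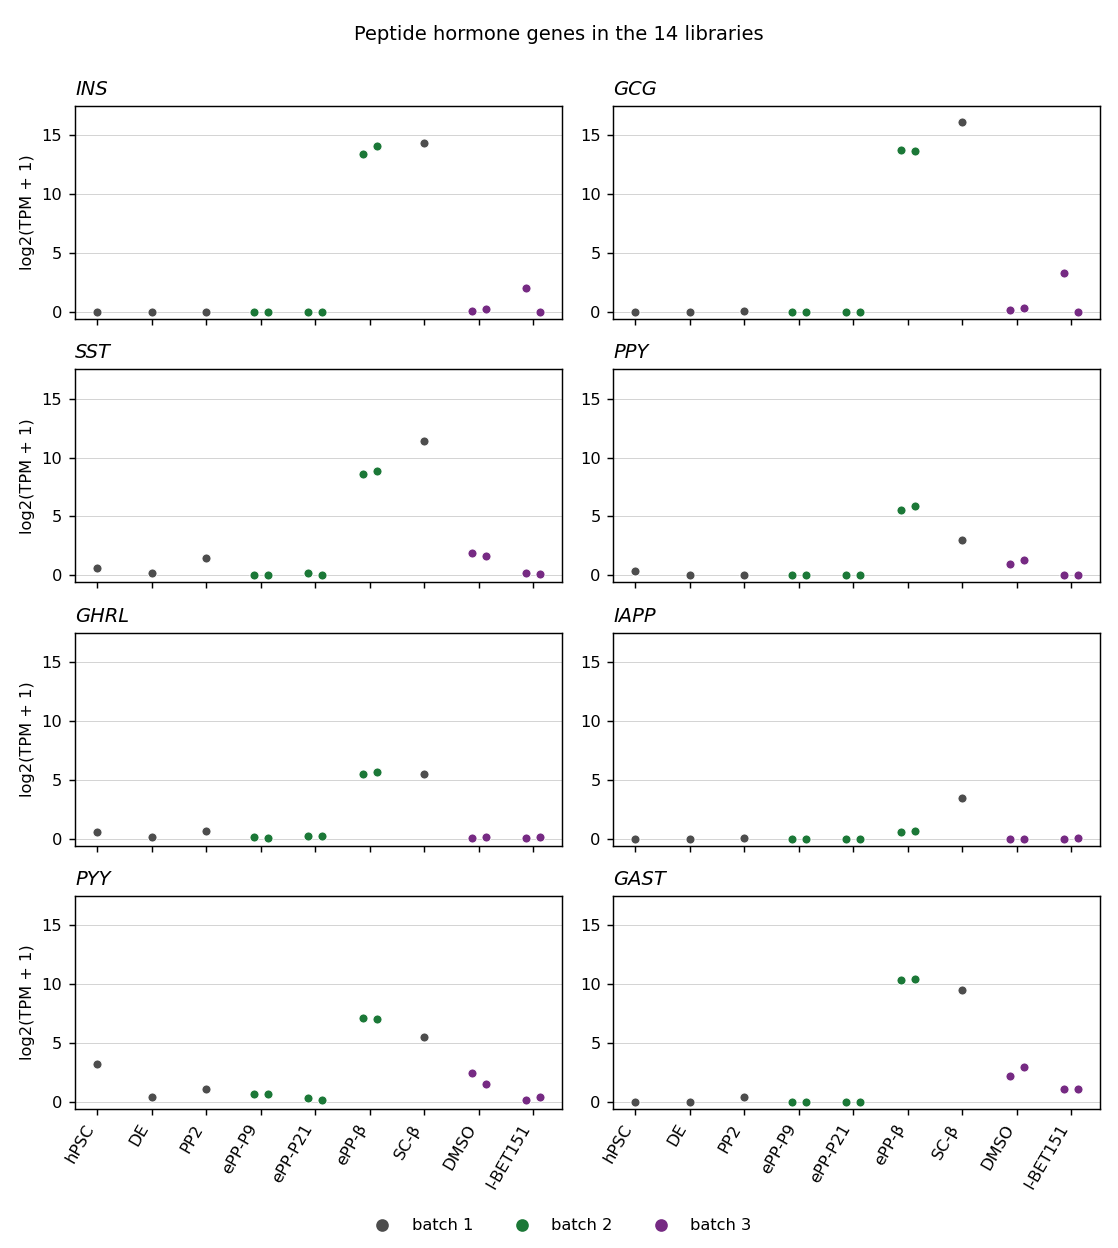
Level of each hormone gene in every library, as log2(TPM + 1) on the vertical axis, by group on the horizontal axis. Each point is 1 library and its colour gives the batch. All 8 genes have their highest values in ePP-β or SC-β, with IAPP below 1 TPM in ePP-β and SST and GCG higher in SC-β.

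The ePP-β cells held hormone RNA at a very high level. The 8 genes together made up 2.95% and 3.49% of the listed TPM in replicates 1 and 2. INS was at 10916 and 17374 TPM, ranking 4 and 2 among all genes. GCG was at 14107 and 13360 TPM, ranking 2 and 5. Insulin and glucagon RNA were thus of the same order in these cultures, which are named for the β cell. GCG was above INS in replicate 1 and below it in replicate 2.

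GAST was the third most abundant hormone gene, at 1320 and 1423 TPM, ranking 85 and 78. It stood above SST, the islet hormone of δ cells, which was at 391 and 468 TPM. PYY was at 137 and 128 TPM. PPY, its close relative and neighbour on chromosome 17, was at 45.8 and 57.4 TPM, and GHRL at 42.9 and 49.4 TPM. IAPP, which adult β cells secrete together with insulin, was at 0.463 and 0.538 TPM. The order INS and GCG, GAST, SST, PYY, then PPY and GHRL, then IAPP was the same in both replicates, except that INS and GCG changed places. The ranges of PPY and GHRL overlapped.

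The hormones differed in how well the 2 ePP-β libraries agreed. INS differed by 0.67 on the log2 scale, and of the 9564 genes with a mean of at least 10 TPM only 4.97% differed more, while the median gene differed by 0.15. GCG differed by 0.08, which 72.3% of genes exceeded. SST, PPY, GHRL, PYY and GAST lay between, at 0.26, 0.32, 0.20, 0.10 and 0.11. The INS level was therefore the least repeatable of the set, with a mean of 14145 ± 4566 TPM against 13733 ± 529 TPM for GCG (SD, n = 2).

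Against the 4 ePP libraries, INS, GCG, SST, PPY, GHRL, PYY and GAST were called higher in ePP-β. A call needed an adjusted p under 0.05 in limma, a linear model fitted over all genes, and a change beyond 1 on the log2(TPM + 1) scale. Of 18076 genes tested, 17.9% were called higher and 9.86% lower. All 7 hormones passed the filter of 1 TPM in 2 libraries through the ePP-β libraries alone and had to differ, so their number is not read as a result. The size of a fitted change also depends here on the value added before the logarithm. For INS it was 13.74 on the log2 scale with 1 TPM added and 17.02 with 0.1 TPM added. IAPP did not pass the filter.

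INS shares sequence with the readthrough gene INS-IGF2, which starts beside INS on chromosome 11 (2132538 to 2161209, minus strand, GRCh38) and covers INS (2159779 to 2161221) on the same strand. INS-IGF2 was at 1145 to 1692 TPM in the ePP libraries, where INS was at or below 0.0104 TPM, and at 2554 and 3245 TPM in ePP-β. It was called higher in ePP-β, by 1.14 ± 0.15 (SE, limma adjusted p = 0.00114), but only by 0.96 without ePP-β replicate 2. IGF2 did not differ beyond its error, with a log2 fold change of -0.02 ± 0.10 and limma adjusted p = 0.879. INS-IGF2 also overlaps IGF2 (2129112 to 2158391) on the same strand. How the authors' assembly divided reads among INS, INS-IGF2 and IGF2 was not tested. Adding INS-IGF2 to INS moved the GCG to INS ratio in ePP-β from 1.29 and 0.769 to 1.05 and 0.648. Since INS-IGF2 was already high in the progenitors without INS, this sum is not a measure of insulin RNA alone.

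GHRL and IAPP lie opposite other genes. GHRL (chromosome 3, 10285666 to 10292947) lies opposite the antisense gene GHRLOS, which was at 1.86 TPM or less in every library, LINC00852, which measured 0.583 and 0.609 TPM in ePP-β, and 2 genes without a symbol, which were at 15.2 and 14.8 TPM and at 1.24 and 0.466 TPM in ePP-β. IAPP (chromosome 12, 21354959 to 21379980) lies opposite SLCO1A2, which was at 0.321 and 0.538 TPM in ePP-β. The use of strand in counting is not given in the sources used here, so the low IAPP values cannot be told apart from SLCO1A2 reads. GCG (chromosome 2, 162142882 to 162152404), SST (chromosome 3, 187668912 to 187670394) and GAST (chromosome 17, 41712331 to 41715969) overlap no other gene of the GENCODE annotation. PPY (chromosome 17, 43940804 to 43942476) and PYY (43952733 to 44004469) lie 10256 bases apart on the same strand.

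The enzymes that mature prohormones were higher in ePP-β than in the progenitors. Of 8 such genes 7 were tested and all 7 were called higher, where 17.9% of all genes were. PCSK1, PCSK2 and MBOAT4 passed the filter through ePP-β alone and had to differ, and the other 4 were all called higher. CPE (carboxypeptidase E), PAM (the enzyme that amidates PPY, PYY and gastrin), SCG5 (the PCSK2 chaperone) and PCSK1N (a PCSK1 inhibitor) were at 1 TPM or more in every library of the fit. PCSK1 rose from 0.0725 TPM or less to 180 and 159 TPM and PCSK2 from 0.00293 TPM or less to 152 and 132 TPM. CPE was at 177 to 259 TPM in the progenitors and at 1028 and 941 TPM in ePP-β, a log2 fold change of 2.18 ± 0.08 (SE, limma adjusted p = 1.14e-05). PAM was called by a narrow margin, at 1.28 ± 0.44 (limma adjusted p = 0.0494). MBOAT4, the acyltransferase that activates ghrelin, was at 9.83 and 7.52 TPM in ePP-β. QPCT, which forms the pyroglutamate end of gastrin, stayed below 1 TPM in every library.

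The receptors of these hormones changed unequally. Of 20 receptor genes and their partner proteins 11 were tested, of which 8 were called higher, 1 lower and 2 not, where 17.9% of all genes were called higher and 9.86% lower. SSTR1, SSTR3, NPY5R, CALCR, RAMP2 and RAMP3 passed the filter through ePP-β alone, and of the other 5 genes 3 were called higher and 1 lower. The somatostatin receptors SSTR1, SSTR2 and SSTR3 were called higher and reached 32.9 and 24.8 TPM, 27.0 and 22.7 TPM, and 18.2 and 15.5 TPM in ePP-β. CALCR, which forms amylin receptors with the RAMP proteins, was at 15.2 and 29.3 TPM in ePP-β, where the amylin gene IAPP was below 1 TPM. RAMP1 was called lower (log2 fold change -1.78 ± 0.15, limma adjusted p = 0.000185). GLP1R, the receptor of a peptide cut from the glucagon precursor, was at 12.96 and 16.0 TPM. The glucagon receptor GCGR (0.175 and 0.208 TPM), the ghrelin receptor GHSR (0.0362 and 0.427 TPM) and the gastrin receptor CCKBR (0.879 and 0.482 TPM) were below 1 TPM in ePP-β.

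Of the transcription factors known to act on hormone genes, all 14 were tested, of which 9 were called higher, 2 lower and 3 not, where 17.9% of all genes were called higher and 9.86% lower. NEUROD1, PAX4, PAX6, IRX1, NKX2-2, ISL1 and FEV passed the filter through ePP-β alone and had to differ, and of the other 7 genes 2 were called higher and 2 lower. NEUROD1 was at 334 and 317 TPM in ePP-β, FEV at 317 and 288 TPM, ISL1 at 158 and 158 TPM and PAX6 at 64.9 and 87.8 TPM. PAX4, a factor of β and δ cells, was at 35.7 and 65.5 TPM. PDX1 (log2 fold change -1.25) and HHEX (-1.43) were called lower. MAFA, a factor of mature β cells, was at 2.05 and 1.75 TPM in ePP-β against 0.890 to 1.18 TPM in the progenitors and was not called (log2 fold change 0.50 ± 0.15, limma adjusted p = 0.0273).

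**Figure D2:**
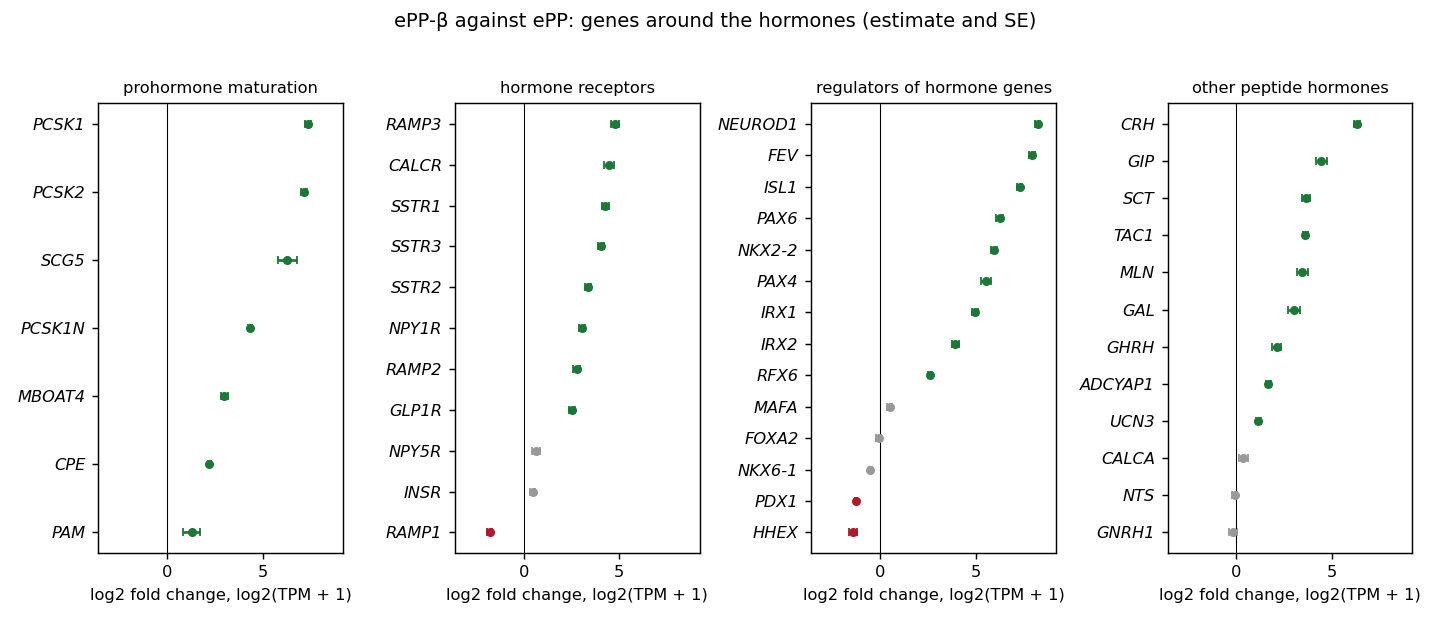
Log2 fold change of ePP-β against ePP (horizontal axis, on log2(TPM + 1)) for genes of 4 lists, with the SE as bars from limma on 2 ePP-β and 4 ePP libraries. Green marks genes called higher, red those called lower and grey those not called; all 7 tested prohormone maturation genes are green, while RAMP1, PDX1 and HHEX are red.

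Other peptide hormone genes were below INS, GCG, GAST, SST and PYY in ePP-β. Of 20 taken by name 12 were tested, of which 9 were called higher and 3 not, where 17.9% of all genes were called higher. Of the 9 called, 8 (GIP, SCT, MLN, ADCYAP1, TAC1, UCN3, CRH and GHRH) passed the filter through ePP-β alone and had to differ, and of the other 4 tested 1 was called higher. NTS, the neurotensin precursor, measured 72.4 and 87.6 TPM and CRH, the corticotropin releasing hormone, 86.7 and 72.5 TPM, both above PPY and GHRL. GIP, an incretin of the upper intestine, was at 19.8 and 33.8 TPM, SCT (secretin) at 15.5 and 15.3 TPM, and TAC1, the substance P precursor, at 10.4 and 11.9 TPM. VIP, NPY and NMU were listed at 0 in both ePP-β libraries.

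Markers of other cells were read beside the hormones. All 6 markers of enterochromaffin cells, the serotonin cells of the gut, were called higher in ePP-β, where 17.9% of all genes were, and their summed level was 1040 and 1124 TPM against 22.2 to 27.0 TPM in the progenitors. Of these TPH1, SLC18A1, FEV and LMX1A passed the filter through ePP-β alone, and FEV is also 1 of the 14 transcription factors above. TPH1, their serotonin synthesis enzyme, was at 140 and 245 TPM. Of 7 acinar markers 4 were tested and called higher, all of which passed the filter through ePP-β alone, at a summed level of 27.2 and 32.6 TPM in ePP-β against 0.286 TPM or less in the progenitors. Of 5 ductal markers 3 were tested and 1 was called higher, and of 7 mesenchyme markers 5 were tested, with 1 lower and 4 not called. The summed ductal level was 651 and 593 TPM against 454 to 524 TPM, and the mesenchyme level 51.8 and 40.0 TPM against 45.3 to 70.9 TPM. The part of such cells in the hormone values was not tested.

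The directly made SC-β cells were set beside ePP-β to see whether the 2 routes gave the same hormone mixture. SC-β had 1 library and came from another batch, which leaves route and batch confounded (they cannot be told apart), and the values carry no test. Hormone RNA took 10.47% of the listed TPM in SC-β, more than in either ePP-β library. GCG was at 74281 TPM and ranked 1 of all genes, 5.41 times the ePP-β geometric mean on the TPM + 1 scale. INS was at 20657 TPM, above both ePP-β libraries, by 0.58 on the log2 scale (0.92 against replicate 1 and 0.25 against replicate 2), which is less than the 0.67 between the ePP-β replicates. SST was at 2757 TPM against 391 and 468 TPM. IAPP, below 1 TPM in ePP-β, was at 9.62 TPM.

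PPY, PYY and GAST had smaller values in SC-β. GAST was at 720 TPM in SC-β against 1320 and 1423 TPM in ePP-β, PYY at 43.6 TPM against 137 and 128 TPM, and PPY at 6.96 TPM against 45.8 and 57.4 TPM. GHRL, at 45.1 TPM, lay between the ePP-β replicates. Of the 7 hormones that passed the filter 2 were more than 1 higher on the log2 scale (GCG by 2.44, SST by 2.69) and 2 more than 1 lower (PPY by -2.72, PYY by -1.58), where 14.9% of 17076 genes were that much higher and 20.5% that much lower. With quantile normalization, which gives every library the same distribution of values, the INS difference was 0.023 and the GCG difference 1.42.

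**Figure D3:**
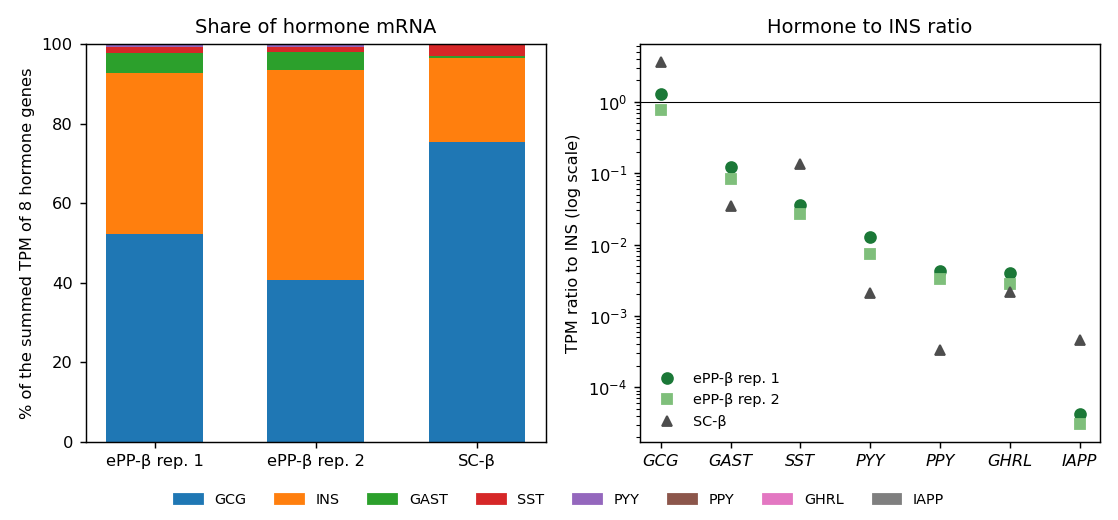
Left, the share of each of the 8 genes in their summed TPM (percent, stacked bars) in the 2 ePP-β libraries and the SC-β library. Right, the TPM ratio of each hormone to INS on a log axis, where the line marks a ratio of 1; GCG lies at 1.29 and 0.769 in ePP-β and at 3.60 in SC-β.

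As shares of the hormone total, INS made up 40.5% and 52.9% in ePP-β and 20.97% in SC-β. GCG made up 52.3% and 40.7% in ePP-β and 75.4% in SC-β. GAST made up 4.90% and 4.33% in ePP-β and 0.731% in SC-β, while SST was at 1.45% and 1.42% in ePP-β and at 2.80% in SC-β. The GAST to SST ratio was 3.38 and 3.04 in ePP-β and 0.261 in SC-β, so the order of these hormones was opposite in the 2 kinds of cells. PYY exceeded PPY in all 3 libraries, with PYY to PPY ratios of 3.00, 2.23 and 6.26.

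Of the 7 maturation genes that passed the filter, PCSK1N and SCG5 were more than 1 higher in SC-β on the log2 scale and PCSK1 more than 1 lower, where 14.9% and 20.5% of all genes were, and CPE, PAM, PCSK2 and MBOAT4 were within 1. PCSK1, the convertase of proinsulin and the one that cuts GLP-1 from the glucagon precursor, was at 11.1 TPM in SC-β against 180 and 159 TPM in ePP-β. PCSK2, which yields glucagon, was at 178 TPM against 152 and 132 TPM. The PCSK2 to PCSK1 ratio was therefore 16.1 in SC-β and 0.845 and 0.834 in ePP-β. PCSK1N was at 6656 TPM in SC-β against 707 and 641 TPM. Of the 14 factors, 2 were more than 1 higher in SC-β (IRX1 by 1.69, IRX2 by 1.30) and 2 more than 1 lower (PAX4 by -2.35, ISL1 by -1.38). PAX4 was at 8.68 TPM against 35.7 and 65.5 TPM. Of the 11 receptor and partner genes that passed the filter, 2 were more than 1 higher in SC-β and 4 more than 1 lower. CALCR, 1 of the lower genes, was at 0.0169 TPM in SC-β. SSTR5 and CCKBR did not pass the filter and were at 20.9 and 20.3 TPM in SC-β, both below 1 TPM in ePP-β.

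**Figure D4:**
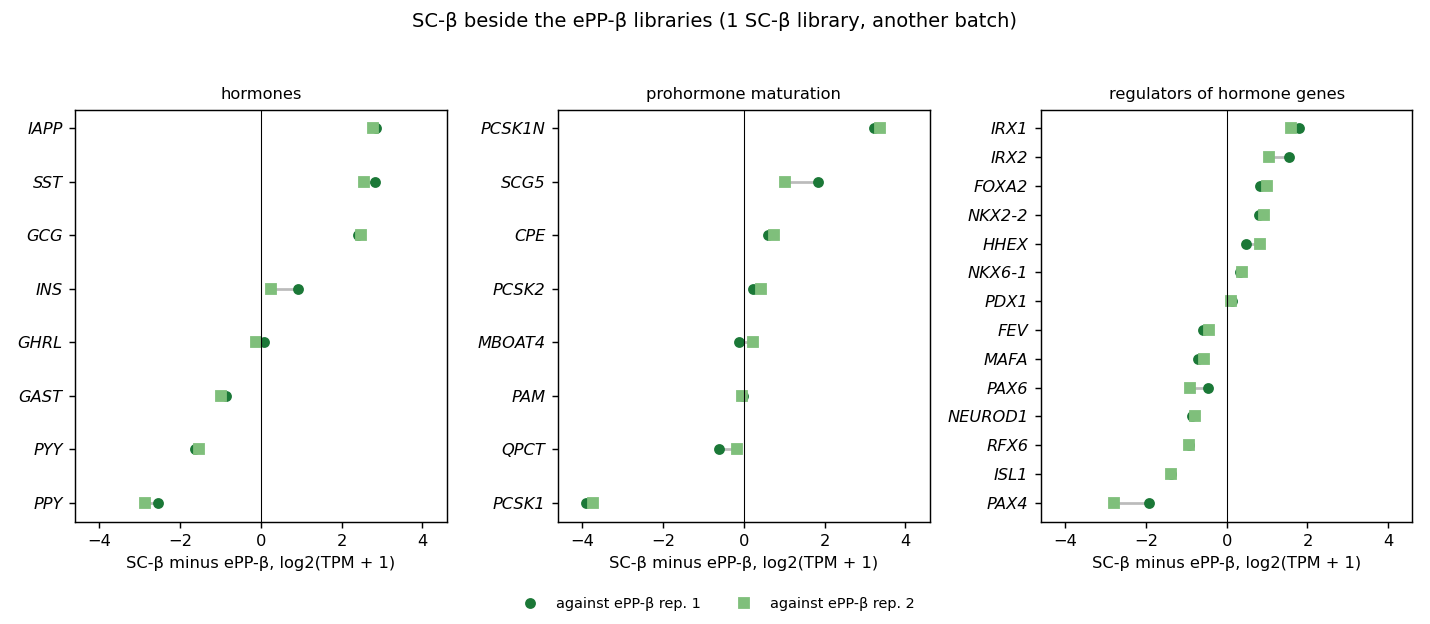
Difference of the SC-β library from each ePP-β library (horizontal axis, log2(TPM + 1)), for the hormones, the prohormone maturation genes and the regulators of hormone genes. Circles and squares are the 2 ePP-β libraries; PPY and PCSK1 lie furthest to the left in their panels and PCSK1N furthest to the right in its own.

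Mesenchyme markers also differed between the SC-β library and the ePP-β libraries, where route and batch are again confounded. All 6 that passed the filter, of 7, were more than 1 higher in SC-β, where 14.9% of all genes were. The summed level of the 7 was 2678 TPM against 51.8 and 40.0 TPM, with COL1A1 at 896 TPM against 8.63 and 5.90 TPM. Of the other batch 1 libraries, PP2 had a mesenchyme sum of 1490 TPM, hPSC 563 TPM and DE 47.0 TPM. The enterochromaffin sum was 528 TPM in SC-β, the acinar sum 40.4 TPM and the ductal sum 341 TPM. The part of these cells in the hormone levels was not tested.

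Low hormone values were also seen in progenitors kept with DMSO, and 4 of the genes had smaller values in both I-BET151 libraries. No hormone passed the test in the main fit, which does not match libraries by replicate number. SST measured 2.70 and 2.06 TPM with DMSO against 0.154 and 0.109 TPM with I-BET151. GAST measured 3.57 and 6.89 TPM with DMSO against 1.09 and 1.19 TPM with the inhibitor. PYY measured 4.51 and 1.85 TPM with the solvent against 0.154 and 0.323 TPM with the inhibitor. The DMSO and I-BET151 libraries did not overlap for these 3 genes. How many of all genes separate in this way was not counted, so with 2 libraries on each side the separation is not read as a result. PPY showed the same order, at 0.898 and 1.43 TPM in DMSO and listed at 0 in both I-BET151 libraries.

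PPY did not pass the filter, and no hormone was called in the main fit. Of 16687 genes tested 0.00599% were called higher and 0.204% lower with I-BET151, and 2536 had an unadjusted p under 0.05. SST, PYY and GAST were the 3 hormones tested, of which SST and PYY passed the filter through DMSO alone, and 0 of the 3 were called by limma in this fit. The log2 fold change was -1.57 ± 0.28 for SST (SE, unadjusted p = 0.00242, limma adjusted p = 0.103). It was -1.68 ± 0.41 for PYY (unadjusted p = 0.00872, limma adjusted p = 0.159) and -1.49 ± 0.38 for GAST (unadjusted p = 0.0105, limma adjusted p = 0.170). The median of all genes tested was 0.16. The calls depended on how replicates were treated. With the replicate number as a block in limma, SST, PYY and GAST were called lower (limma adjusted p = 0.0184, 0.0332 and 0.0276). That fit used the same filter and called 828 of the 16687 genes higher and 1466 lower.

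INS and GCG behaved otherwise. INS was at 3.03 TPM and GCG at 9.21 TPM in I-BET151 replicate 1, while INS was at 0.0199 TPM and GCG was listed at 0 in replicate 2. In DMSO, INS was at 0.0457 and 0.187 TPM and GCG at 0.144 and 0.249 TPM. The INS to GCG ratio in I-BET151 replicate 1 was 0.329, beside 0.278 in SC-β and 0.774 and 1.30 in ePP-β. The 2 I-BET151 libraries thus lay on either side of the DMSO libraries for both genes, and these values rest on 1 library. GHRL was at 0.101 TPM or less and IAPP at 0.0118 TPM or less in all 4 libraries.

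No gene of the other hormone lists was called in the main fit of this comparison, where 0.00599% of all genes were called higher and 0.204% lower. With so few calls among all genes, a count of 0 in a short list is not read as a result. Of the maturation genes 4 were tested and 0 called, of the receptors 7 were tested and 0 called, of the regulators 5 were tested and 0 called, and of the other peptide hormones 4 were tested and 0 called by limma. Of the markers of other cells 1 gene was called. LUM, a mesenchyme marker, was at 16.2 and 14.2 TPM with DMSO against 0.477 and 0.670 TPM with I-BET151 (log2 fold change -3.37, limma adjusted p = 0.0480). KRT7 and CPA1 had smaller values in I-BET151 without a call, and like LUM they passed the filter through DMSO alone. KRT7, a duct keratin, measured 5.14 and 4.13 TPM with DMSO and was listed at 0 or at 0.0317 TPM in I-BET151 (limma adjusted p = 0.0605), and CPA1, an acinar enzyme, was at 4.74 and 4.11 TPM against 0.258 and 0.284 TPM (limma adjusted p = 0.0698). The enterochromaffin sum was 71.0 and 33.7 TPM with DMSO against 10.55 and 15.8 TPM with I-BET151, the ductal sum 1223 and 727 against 783 and 324 TPM, the acinar sum 6.83 and 10.9 against 1.16 and 1.74 TPM, and the mesenchyme sum 188 and 80.5 against 76.4 and 34.0 TPM. Their part in the hormone values was not tested.

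**Figure D5:**
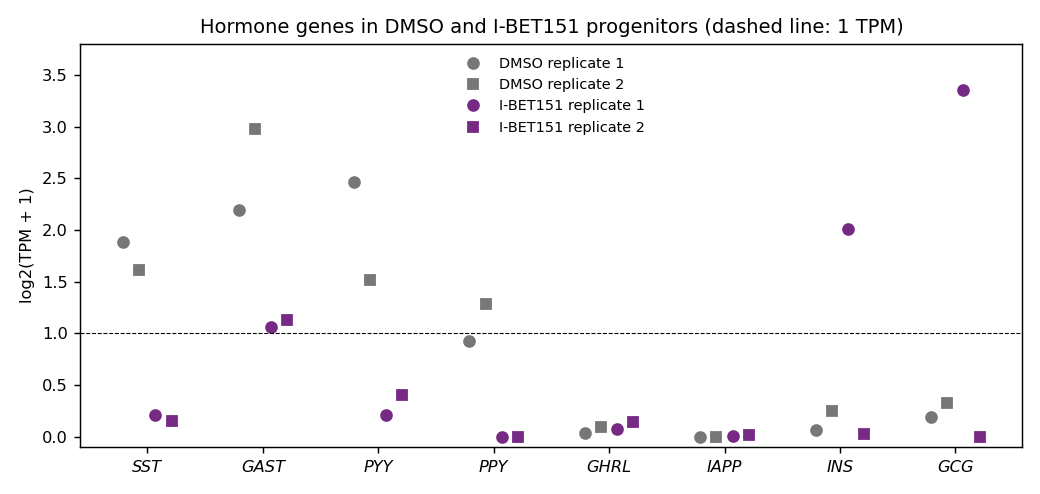
Level of each hormone gene as log2(TPM + 1) in the DMSO (grey) and I-BET151 (purple) libraries, with circles for replicate 1 and squares for replicate 2. SST, GAST, PYY and PPY are higher in both DMSO libraries, while INS and GCG are above the dashed line at 1 TPM in I-BET151 replicate 1 alone.

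Across all 14 libraries the hormones had much the same profile, since most of the variation lay between the 3 β-like libraries and the rest. Pearson's r of log2(TPM + 1) was 0.996 between INS and GCG and 0.457 between PPY and IAPP, over 14 libraries that share batches. The nearest profiles were sought among 13695 genes with at least 10 TPM in a library, with the hormones themselves left out as matches. Outside the hormone set, the profile most like that of INS was that of ABCC8, the regulatory subunit of the β cell potassium channel (r = 0.996). It was followed by PCSK2 (0.995) and GPR119 (0.995). Of the genes outside the set, MAP3K15 was nearest to GCG (0.990), which is less near than INS. ITIH1 was nearest to SST (0.998), LINC01370 to PPY (0.998), TSPAN32 to GHRL (0.997), IL13RA2 to IAPP (0.998), AIF1 to PYY (0.988) and CBLN1 to GAST (0.990).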

How the data were processed

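Total RNA of MEL1 cells was sequenced as paired ends on an Illumina HiSeq. The authors aligned reads to GRCh38 with HISAT2 2.1.0, ran StringTie for transcript assembly and added up transcripts by gene identifier, and the deposited values are TPM, not scaled further. Neither annotation release nor strand setting is given in the sources used here. TPM keeps no read numbers, so the depth is unknown; a library's listed TPM came to 908685 to 985497. The authors used DESeq2 for their own tests; a count test cannot take TPM.

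Of 60624 identifiers 60370 matched GENCODE release 44 (GRCh38), which gave symbols and positions. Groups came from the sample titles. Nothing says that replicates came from separate cultures, so p-values measure the spread between these libraries, which may be technical. Genes that reached 1 TPM in 2 or more libraries of a comparison were fitted as log2(TPM + 1) in limma 3.58.1 (R 4.3.3; eBayes with trend), with two-sided Benjamini-Hochberg adjusted p over all genes tested. A change on this scale understates that of low genes. The fit was tested on simulated data. Each comparison stayed within 1 batch, and SC-β was set beside ePP-β with no test.

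The hormones and the gene lists were chosen with earlier results of these data known. The text names the 8 hormones, overlapping genes, from each list up to 4 tested genes with the largest change in ePP-β, and the genes with the most similar profiles; other list genes that are named were chosen after their values were seen. Some items of these lists are not reported here. The alternatives tried were a pseudocount of 0.1, no filter, a filter of 5 TPM, a replicate block, median centring, quantile normalization and leaving out each library.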

Additional observations from a re-analysis of the deposited data

How the results depend on the processing

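With 2 libraries per group the calls rest on little replication. For ePP-β against ePP, 7 hormones stayed called under each alternative in which they were tested. All 7 passed the filter through ePP-β alone and had to differ, so this is no check of their calls. Leaving out an ePP-β library removed all hormones from the test, since they then reached 1 TPM in 1 library only, so that 0 were called. Over all libraries left out in turn, 1623 to 3273 genes and 0 to 7 hormones were called higher, against 3237 and 7 in the full comparison. An alternative chosen after seeing the data kept the genes tested in all libraries. It assumes that the lone ePP-β library varies like the others. The log2 fold change of INS was then 14.08 without ePP-β replicate 1 and 13.41 without ePP-β replicate 2, and that of GCG was 13.71 and 13.78. A filter of 5 TPM gave 2058 genes higher and quantile normalization 2866 lower. Quantile normalization turned IGF2 to 0.13 and LUM to -0.15, and leaving out 1 library moved IGF2 between -0.084 and 0.046 (turned without ePP-P9 replicate 1, 0.044, or ePP-β replicate 1, 0.046) and COL3A1 between -0.26 and 0.10 (turned without ePP-P21 replicate 1, 0.050, or ePP-β replicate 2, 0.10). INS-IGF2 lost its call without ePP-β replicate 2 (0.96).

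For I-BET151 against DMSO, 1 gene was called higher and 34 lower. A pseudocount of 0.1 and no filter each gave 0 higher and 0 lower. Median centring gave 119 lower, and quantile normalization 3 higher and 135 lower. Leaving out each library gave 7 to 283 higher and 100 to 751 lower. The sources used here do not say whether libraries with the same replicate number were paired, and there are 2 such pairs. The replicate differences correlated at 0.675 between DMSO and I-BET151 over genes, so libraries with the same number shared part of their difference. With the replicate block 828 of 16687 genes were called higher and 1466 lower, among them 3 hormones: SST (limma adjusted p = 0.0184), PYY (0.0332) and GAST (0.0276). SST and PYY passed the filter through DMSO alone. No hormone was called under the other alternatives in which it was tested. Among those that kept all libraries, the lowest limma adjusted p was 0.0781, for SST with median centring. The filter of 5 TPM left no hormone to test, and without either DMSO library only GAST was tested. In the ePP comparisons the block changed no hormone call; the replicate differences correlated there at -0.00933 to 0.0439.

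For SC-β beside ePP-β, quantile normalization moved the log2 difference of INS to 0.023, GCG to 1.42, SST to 2.91, IAPP to 3.14 and GAST to -0.68, and a pseudocount of 0.1 moved IAPP to 4.02. GHRL, at -0.03, was at 0.069 without ePP-β replicate 2, and the other hormones kept their direction without either ePP-β library.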

Other observations

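Some peptide, receptor and enzyme genes of the same lists had higher values in hPSC, DE or PP2 than in the β-like cells. GAL, the galanin precursor, was at 904 TPM in hPSC, at 285 TPM in DE and at 2.82 TPM in PP2. NMU, the neuromedin U precursor, was at 20.1, 382 and 1.88 TPM in these stages, and NTS, the neurotensin precursor, at 36.0, 192 and 193 TPM. CCKBR, the gastrin receptor, was at 225 TPM in DE and at 27.8 TPM in PP2, where GAST was listed at 0 and at 0.318 TPM. UCN3, a peptide of mature β cells, was at 13.4 TPM in PP2, above its 1.19 and 1.24 TPM in ePP-β and 3.34 TPM in SC-β. MBOAT4, the ghrelin acyltransferase, was at 10.1 TPM in PP2, where GHRL was at 0.560 TPM. Each of these stages had 1 library, so these values have no replicate check.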
